A study of Rattus norvegicus with 6 samples.

Results

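Atf4, Atf5, Ddit3, Cebpg, Nupr1, Trib3, Sesn2, Chac1, Asns and Vldlr are 10 genes of the ATF4 stress response, and they were described here in rat RUCA-I cells with and without the microRNA miR-203. The genes were chosen from the expression values of this same comparison together with knowledge of the pathway. Their levels and calls are therefore a description and support nothing beyond themselves. A gene was taken where its symbol stood in a row that the authors had tested, and the longest locus was used where there were several rows. This gave a row for 8 of the 10 genes, among 26459 tested rows in all. Nupr1 and Vldlr had no row under their symbols and their expression was not analysed here.

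RUCA-I is an endometrial adenocarcinoma line from the Lewis rat strain, and all cells compared were untreated and grown to near confluence in serum-containing medium. The WT group held 3 batches of wild type cells, and the miR-203 KO group held 3 separately made lines of genotype miR-203 -/-; how these lines were made is not given in the labels. The WT samples are batches and the KO samples are lines, so the loss of miR-203 and other differences between separately made lines cannot be told apart. In RNA from whole cultures, fewer cells of a type and less RNA per cell cannot be told apart either.

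ATF4 is a transcription factor whose mRNA is translated better when the initiation factor eIF2 is phosphorylated. The kinases PERK, GCN2, PKR and HRI respond to unfolded protein in the endoplasmic reticulum, amino acid shortage, double-stranded RNA and haem shortage or oxidative stress, and this common path is called the integrated stress response. ATF4 pairs with C/EBP proteins on composite DNA elements and switches on genes for amino acid synthesis, amino acid uptake, tRNA charging and feedback control. Because much of the control of ATF4 is at translation, the mRNA level of Atf4 does not measure its protein.

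The microRNA absent from the KO cells, miR-203, is shown first. Its mature 3p strand in RefSeq (assembly GRCr8, chromosome 6, 137020756 to 137020777, plus strand) is printed 5′ to 3′ with the seed, bases 2 to 8, in capitals.
rno-miR-203a-3p: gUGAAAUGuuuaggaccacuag
No match of the seed to the members was searched for, and whether any of them is a target was not tested.

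The promoters bear on the pathway because ATF4 acts through short DNA elements. RefSeq windows of 300 bases, from 250 before to 50 after the start of transcription on GRCr8, were available for 10 of the 10 genes. The letters TGATGNAA, which C/EBP-ATF composite elements share, were searched on both strands. They occurred in 3 of the 10 windows, those of Nupr1, Chac1 and Trib3, and in 1332 of all 33469 windows (3.98%). The stricter TTGCATCA, on either strand, is the reverse complement of one form of the same 8 letters and so overlaps it. It was in 2 of the 10 windows and in 0.795% of all windows. The members were chosen with knowledge of the pathway, so nothing is read from these shares. The 30 bases around each match are printed in the direction of the motif, 5′ to 3′, with the match in capitals. Genes of the wider ATF4 pathway follow the 3 members, to show how the flanks vary around the same core.
Nupr1: caagccctgtcTGATGCAAtctggcctttt
Chac1: cctagcaggagTGATGCAAcggcggagaag
Trib3: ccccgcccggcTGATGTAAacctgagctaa
Slc7a1: cggcgcgcggcTGATGAAAccggctcggat
Iars: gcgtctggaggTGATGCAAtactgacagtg
Mars: ggagcccacgcTGATGCAAccggaacgggc
Tars: agctaaccagcTGATGCAAcgggacgccag
Herpud1: agggtgcgggcTGATGCAAcccgccgtggt
Jdp2: atagccggggcTGATGCAAcccgtcccgcc
The core varied at its sixth letter, which was T in Trib3, A in Slc7a1 and C in the other printed lines. The match stood at bases -55 to -48 from the start of Nupr1, -167 to -160 of Chac1 and -21 to -14 of Trib3. A match is a description of letters, and binding of ATF4 was not measured.

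Chac1 and Trib3 are the members with both a match and an expression value, so their upstream sequences are given in full, on the gene's strand 5′ to 3′, with the match in capitals. Chac1 is read from chr3:126795881-126796130 (GRCr8, plus strand) and Trib3 from chr3:161275534-161275783 (GRCr8, minus strand).
Chac1 upstream: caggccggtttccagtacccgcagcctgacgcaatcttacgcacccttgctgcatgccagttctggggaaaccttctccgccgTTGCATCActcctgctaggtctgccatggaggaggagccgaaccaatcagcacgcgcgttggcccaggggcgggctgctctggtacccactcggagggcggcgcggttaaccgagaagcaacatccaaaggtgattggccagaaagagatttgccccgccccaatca
Trib3 upstream: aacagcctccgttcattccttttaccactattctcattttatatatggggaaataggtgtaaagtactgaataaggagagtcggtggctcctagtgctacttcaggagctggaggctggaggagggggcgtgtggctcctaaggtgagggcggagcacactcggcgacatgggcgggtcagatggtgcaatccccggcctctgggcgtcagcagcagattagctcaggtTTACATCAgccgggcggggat
In the Trib3 line the match lies close to the right end, next to the start, and in the Chac1 line it lies in the left part.

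Expression is given as FPKM, fragment counts scaled to transcript length and to library size, as 1 value per group that the authors made from the 3 samples. Values of single samples were not analysed here, so no value below has an SD or an n, overlap between samples cannot be judged, and the read depth is unknown. A gene is called changed where the q-value, a p-value adjusted by the authors over all tested rows, is under 0.05. No p in the authors' deposited table is below 5e-05, a value that 175 called rows share, so p does not rank them. Of the 26459 rows, 147 (0.556%) were called lower and 130 (0.491%) higher in KO cells. Among the expressed rows, taken here as those averaging 1 FPKM or more over both groups, 0.708% were called lower and 0.619% higher. The log2 ratio of KO to WT had a median of 0.01 over these rows, with quartiles of -0.13 and 0.16. Scaling both groups to the same FPKM sum shifted that median to -0.16, and every ratio with it. The epithelial markers Epcam (501 FPKM in WT, 419 in KO), Cdh1 (152 and 144), Krt8 (204 and 241), Krt18 (103 and 121) and Cldn4 (213 and 228) were high in both groups and none was called, while Krt19 had no row. Of 6 fibroblast, 5 leukocyte, 4 endothelial, 3 muscle and 3 neural markers, those with a row were Col1a1 (1.43 and 1.17 FPKM), Csf1r (0.791 and 0.200) and Myh11 (1.2 and 2.8), and Csf1r was called lower in the authors' deposited table (q = 0.0187).

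Of the 8 members with a row, 4 fell in KO cells (beside 0.556% of all tested rows, from which nothing is read since the genes were chosen on this contrast). They were Asns, Sesn2, Chac1 and Atf5, each with q = 0.00756 in the authors' deposited table. No member was called higher (0.491% of all tested rows were), and 4 were not called. The FPKM value was lower in KO cells for 7 members and higher for 1, Cebpg. The median log2 ratio of the 8 was -0.65, against 0.01 over the expressed rows.

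**Figure D1:**
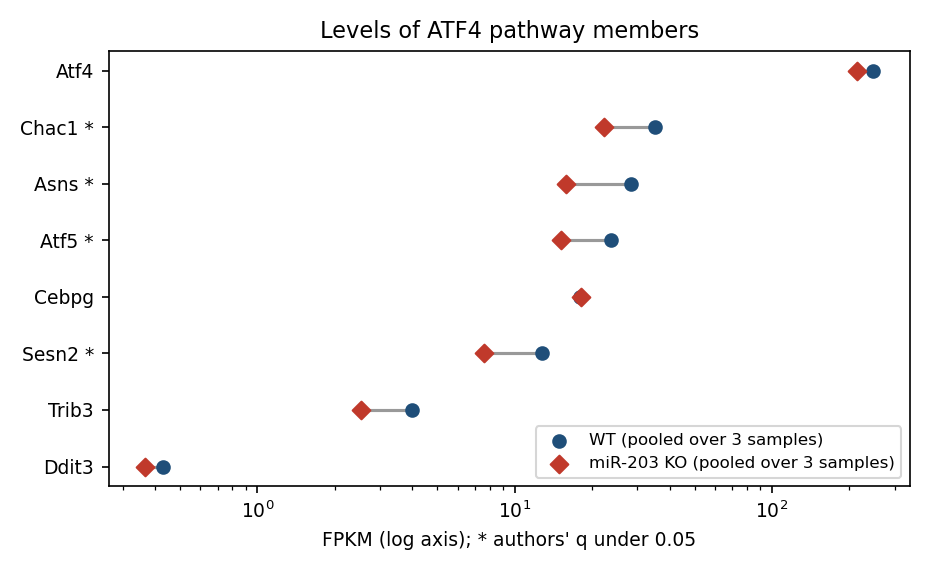
FPKM in WT and miR-203 KO cells for the 8 members with a row, on a log axis, 1 pooled value per group (circles WT, diamonds KO) with no error bar. Atf4 sits highest in both groups, Ddit3 lowest, and Asns, Chac1, Atf5 and Sesn2, the called members, drop from WT to KO.

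Among the transcription factors, Atf4, the factor that gives the response its name, was the most abundant member. Its level was 248 FPKM in WT and 213 FPKM in KO cells. The log2 ratio was -0.22 and was not called in the authors' deposited table (p = 0.04935, q = 0.829). Of the 8434 rows that average 10 FPKM or more, 959 had a lower ratio than Atf4. The gene lies at chromosome 7, 121479971 to 121482775, on rn6, the build of the deposited coordinates.

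Atf5, a close relative of Atf4 whose mRNA is likewise under translational control, fell in KO cells. Its level was 23.7 FPKM in WT and 15.2 FPKM in KO cells, a 1.56-fold difference with a log2 ratio of -0.64 (q = 0.00756 in the authors' deposited table). The locus, chromosome 1, 100808969 to 100827221, is listed with the same coordinates for Nup62, a nuclear pore protein, so reads may have been shared between them. Nup62 measured 55.2 FPKM in WT and 51.1 in KO cells (q = 0.997 in the authors' deposited table), and was not called. A second Atf5 row at the same coordinates held 0.502 FPKM in WT and 0.295 in KO cells and was not called. Because the coordinates tie, the row with the higher mean was used, a choice made after seeing the values.

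Ddit3 encodes CHOP, the factor downstream of ATF4 best known for its part in cell death under lasting endoplasmic reticulum stress. It was near the bottom of the measurable range, at 0.428 FPKM in WT and 0.366 FPKM in KO cells. The log2 ratio of -0.23 was not called (p = 0.88535, q = 0.997 in the authors' deposited table). Its listed locus on chromosome 7, 70580292 to 70602381, is shared with Mars, the methionyl-tRNA synthetase, at 22.4 FPKM in WT cells and 19.3 in KO cells. Mars was not called (q = 0.815 in the authors' deposited table). With the neighbour listed at a far higher level on the same coordinates, the Ddit3 value is uncertain in both groups.

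Cebpg, a short C/EBP family protein that pairs with ATF4, was close to equal in the groups. It measured 17.9 FPKM in WT and 18.2 FPKM in KO cells, with a log2 ratio of 0.02 that turned to -0.14 when the FPKM sums were made equal (q = 0.997 in the authors' deposited table). Of the 8434 better expressed rows, 5126 had a lower ratio than Cebpg, so it lay inside the bulk of genes. The locus is chromosome 1, 91286882 to 91296679.

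Relatives of these factors were read from family lists. Of 8 other ATF and CREB genes, 7 had a row and 1 was called, beside 0.708% called lower and 0.619% called higher among the expressed rows. It was Atf6, the membrane-bound sensor of the endoplasmic reticulum, which fell from 22.1 to 16.5 FPKM (log2 ratio -0.42, q = 0.0187 in the authors' deposited table). Atf1 (58.7 FPKM in WT and 55.5 in KO), Atf2 (21.6 and 22), Atf7 (6.37 and 6.29), Creb1 (9.83 and 10.4), Crem (8.22 and 8.10) and Atf3 (4.29 and 3.48) were not called. Atf3, itself a target of ATF4, had a log2 ratio of -0.30 (q = 0.957 in the authors' deposited table). Among the C/EBP relatives Cebpb, a factor of inflammation and differentiation that also pairs with ATF4, rose from 10.6 to 14.7 FPKM (log2 ratio 0.46, q = 0.00756 in the authors' deposited table). Cebpz, which is on the family list by its symbol alone, was at 45.0 FPKM in WT cells and 41.3 in KO cells and was not called.

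Trib3 is a pseudokinase induced by ATF4 and CHOP that damps both the response and AKT signalling. Its level was 3.99 FPKM in WT and 2.53 FPKM in KO cells. This is a 1.58-fold difference with a log2 ratio of -0.66, and Trib3 was the member nearest outside the threshold (p = 0.00145, q = 0.107 in the authors' deposited table). The gene lies at chromosome 3, 147813414 to 147819640. The family member Trib1 measured 10.4 FPKM in WT and 14 in KO cells, a log2 ratio of 0.42 (q = 0.0683 in the authors' deposited table).

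Sesn2, a leucine-binding inhibitor of mTORC1 signalling that is induced by ATF4 and also by p53, fell in KO cells. It measured 12.8 FPKM in WT and 7.58 FPKM in KO cells, a 1.69-fold difference and a log2 ratio of -0.76 (q = 0.00756 in the authors' deposited table). Among the 8434 better expressed rows, 76 had a lower ratio. The locus is chromosome 5, 150684141 to 150703819. Of its paralogs, Sesn1 was at 2.88 FPKM in WT cells and 2.94 in KO cells and Sesn3 at 8.12 and 7.36, neither of them called, and the difference between paralogs was not tested. The GATOR2 subunits that Sesn2 binds, Mios (8.31 and 8.15 FPKM), Wdr24 (4.92 and 4.94), Wdr59 (14.4 and 13.9) and Sec13 (38.1 and 36), were not called. Sesn2 is also on the p53 side. Of 12 genes of a p53 list, 11 had lower values in KO cells, beside 48.9% of the expressed rows. Their median log2 ratio was -0.32. That of the 8 members was -0.65, and among the ATF4 pathway lists the amino acid transporters had the lowest at -0.25. Those lists leave out the members, so the p53 and ATF4 medians are not like for like and no order is read from them. In the p53 list 2 were called lower, beside 0.708% of the expressed rows, and none higher: Plk2 (55.2 to 33.2 FPKM) and Ccng1 (68.0 to 49.7 FPKM) fell, with q-values of 0.00756 and 0.0137 in the authors' deposited table. Whether ATF4 or p53 bears on Sesn2 here was not tested.

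Chac1 breaks down glutathione through its gamma-glutamylcyclotransferase activity and is among the genes most readily induced by ATF4 and CHOP. It fell from 35.2 FPKM in WT to 22.3 FPKM in KO cells, a 1.58-fold difference with a log2 ratio of -0.66 (q = 0.00756 in the authors' deposited table). Of the 8434 better expressed rows, 98 had a lower ratio. The locus is chromosome 3, 111154290 to 111163561, and 2 unnamed rows on the same coordinates held 0.894 and 2.50 FPKM in WT and 0.843 and 2.37 FPKM in KO cells. Its paralog Chac2 was 13.5 and 13.2 FPKM. The glutathione synthesis genes Gclc (31.9 FPKM in WT, 35.3 in KO), Gclm (25.4 and 28.3) and Gss (33.7 and 36.9) were not called, and neither were the breakdown genes Ggct (5.53 and 5.37) and Ggt1 (15.8 and 23.7). The value of Ggt1 was higher in KO cells, with a log2 ratio of 0.58 (p = 0.0034, q = 0.199 in the authors' deposited table).

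Asns makes asparagine from aspartate and glutamine, and its promoter is a textbook site of the response to amino acid shortage. It had the lowest ratio of all members. The level went from 28.4 FPKM in WT to 15.9 FPKM in KO cells, a 1.79-fold difference with a log2 ratio of -0.84 (q = 0.00756 in the authors' deposited table). Of the 8434 better expressed rows, 54 had a lower ratio. The locus is chromosome 4, 33741374 to 33761086. Of the 11 named expressed rows within 2 Mb, 0 had a lower ratio. Related genes of glutamine metabolism, Glul (51.0 FPKM in WT, 45.7 in KO), Ppat (43.0 and 37.5), Gfpt1 (50.7 and 48.3), Cad (65.5 and 56.3) and Asnsd1 (46.7 and 43.6) were not called. Cad, which starts pyrimidine synthesis, had p = 0.04725 and q = 0.817 in the authors' deposited table.

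Vldlr, a lipoprotein receptor that ATF4 can raise, and Nupr1, a small stress-induced chromatin protein, had no row. Of the receptor relatives of Vldlr, Lrp8 was at 15.5 FPKM in WT cells and 15.2 in KO cells and Lrp1 at 14.1 and 13.9, and neither was called.

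**Figure D2:**
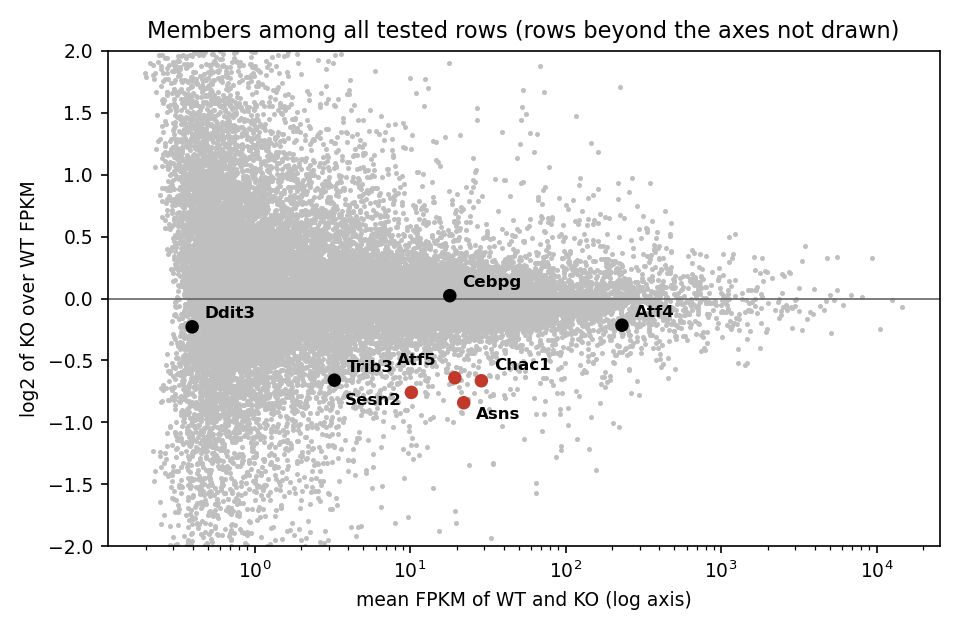
Log2 ratio of KO over WT FPKM against mean FPKM on a log axis for all tested rows, with the members marked (red where called) and rows beyond a log2 ratio of 2 in size not drawn. Asns, Sesn2, Chac1 and Atf5 lie at -0.84 to -0.64, below most rows of similar level, while Cebpg lies near 0 and Ddit3 among widely scattered low rows.

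Cuffdiff, the tool the submitters' processing notes name, assigns reads to overlapping loci, so the rows within 5 kb of each member were read as well. Near Atf4, Mief1 measured 24.5 FPKM in WT and 24.6 in KO cells and Rps19bp1 89.8 and 87.7, at distances of 1269 and 2872 bases. Near Cebpg, LOC100912106 was at 10.9 and 9.79 FPKM. Beside Trib3, Rbck1, a subunit of the linear ubiquitin ligase, rose from 29.5 to 39.5 FPKM (log2 ratio 0.42, q = 0.0137 in the authors' deposited table), in the opposite direction to Trib3. Beyond the low-coordinate end of Asns, which in RefSeq is its downstream side, 2 unnamed rows 690 and 2073 bases away had 0.572 and 0.661 FPKM in WT and 0.210 and 0.228 FPKM in KO cells. Their unadjusted p-values were 0.01145 and 0.0447 and their q-values 0.429 and 0.81 in the authors' deposited table.

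A wider window of 2 Mb on either side, with expressed named rows only, set each member beside its surroundings. The median log2 ratio of named rows there was between -0.08 and 0.04 for every member but Trib3. For Trib3 it was 0.23, with 11 of 60 named rows lower in KO cells and 1 having a lower ratio than Trib3 itself. The count with a ratio below the member's was 3 of 88 for Atf5, 1 of 81 for Sesn2, 5 of 65 for Chac1, 20 of 109 for Atf4, 8 of 30 for Ddit3 and 14 of 28 for Cebpg. These are counts of rows, many of which start at the same position, and not of separate genes. Asns, Sesn2, Chac1, Trib3 and Atf5 stood at or near the bottom of their own stretch, as a description without a test.

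**Figure D3:**
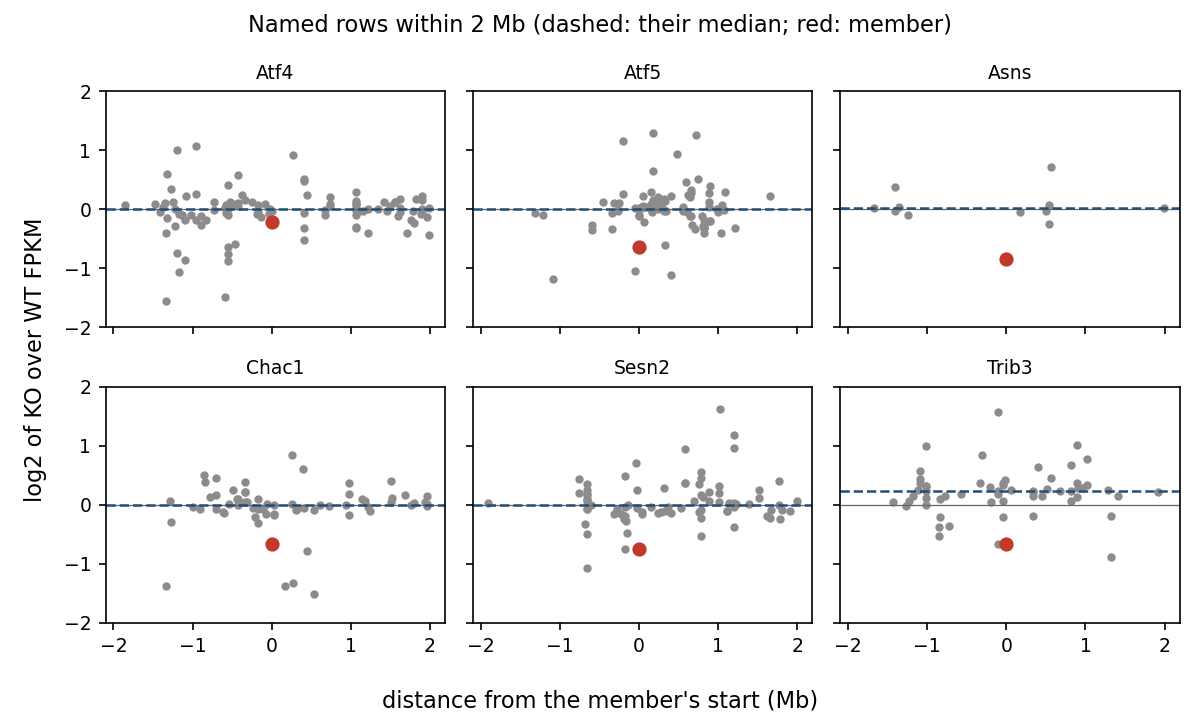
Log2 ratio of KO over WT FPKM for expressed named rows (mean of 1 FPKM or more) against distance in Mb from the start of 6 members, with the member in red at 0 and the median dashed. The stretch around Trib3 has a median of 0.23, the other 5 have medians between -0.01 and 0.01, and Asns lies below all 11 named rows around it.

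The other genes of the pathway were read from lists written with earlier results of these data known. Of 82 listed genes that are no members, 72 were tested. By the authors' calls, 3 fell (Slc7a1, Mthfd2 and Vegfa), 1 rose (Cebpb) and 68 were not called, beside 0.708% called lower and 0.619% called higher among the expressed rows. Of the 69 expressed genes, 57 had a lower value in KO cells and 12 a higher one, a share of 82.6% beside 48.9% of the expressed rows. Their median log2 ratio was -0.13. An unadjusted p under 0.05 stood in the authors' deposited table for 26 of the 69, of which 24 were lower and 2 higher in KO cells. Among all expressed rows 3.22% had such a p and were lower, and 3.38% had one and were higher. Among the 59 pathway genes that average 10 FPKM or more, 22 had such a p and were lower, beside 4.1% of all rows at that level (3.4% were higher).

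Amino acid transporters had a median log2 ratio of -0.25, and 8 of 8 were lower in KO cells, beside 48.9% of the expressed rows. Their ratios ranged from -0.38 to -0.02. The arginine and lysine carrier Slc7a1 fell from 51.0 to 39.2 FPKM (q = 0.0395 in the authors' deposited table), just inside the threshold. The large neutral amino acid carrier Slc7a5 lay just outside, at 92.3 FPKM in WT cells and 71.3 in KO cells (q = 0.0617 in the authors' deposited table). Its partner Slc3a2 (112 and 96.6 FPKM), the glutamine carrier Slc1a5 (74.7 and 61.5) and the cystine carrier Slc7a11 (8.29 and 6.51) were not called. Slc38a2 (135 and 129 FPKM), Slc1a4 (11.3 and 10.5) and Slc6a9 (9.40 and 9.24) differed least and were not called.

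The serine, one-carbon and proline enzymes had a median of -0.19, with 9 of 10 lower in KO cells, beside 48.9% of the expressed rows. Mthfd2, the mitochondrial folate enzyme, fell from 67.0 to 49.8 FPKM (log2 ratio -0.43, q = 0.0187 in the authors' deposited table). Phgdh, the first enzyme of serine synthesis, was at 77.8 FPKM in WT cells and 63.7 in KO cells, Psat1 at 26.7 and 22.7, and Psph at 15.3 and 11.6, none of them called. For Cbs, the values of 0.732 and 2.54 FPKM give a log2 ratio of 1.80, while the authors' deposited table lists a log2 fold of 0.81 (q = 0.872), so its size is uncertain.

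The cytosolic tRNA synthetases load amino acids onto tRNAs. All 18 had a lower value in KO cells as deposited, beside 48.9% of the expressed rows. The median log2 ratio was -0.18, with a range from -0.34 to -0.0049. The authors called 0 of 18, with 8 at an unadjusted p under 0.05 in the authors' deposited table. All 8 were lower in KO cells, beside 3.22% of the expressed rows that had such a p and were lower. Under quantile normalization 16 of the 18 stayed below the median of all rows. Sars (92.7 FPKM in WT, 73.5 in KO) and Cars (36.5 and 29.0) differed most and Kars (109.8 and 109.4) least.

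The remaining targets of ATF4 and CHOP were mixed, with 14 lower and 7 higher of 21 and a median of -0.11. Vegfa, a growth factor for blood vessels, fell from 27.6 to 20.5 FPKM (log2 ratio -0.43, q = 0.0187 in the authors' deposited table). Ppp1r15a, the regulatory subunit that leads the phosphatase to eIF2 and closes the loop, was at 35.2 FPKM in WT cells and 27.8 in KO cells (q = 0.237 in the authors' deposited table). The oxidase Ero1a (24.1 and 18.9 FPKM) and the translation repressor Eif4ebp1 (53.4 and 41.9) were not called, and Gdf15, a secreted stress signal, was 54.0 and 51.9. On the other side, Cebpb rose, as given above, with a log2 ratio of 0.46. Nars2, the mitochondrial asparaginyl-tRNA synthetase, was at 9.12 FPKM in WT cells and 11.6 in KO cells, a log2 ratio of 0.35 that was not called (p = 0.0457, q = 0.814 in the authors' deposited table). The stress gene Gadd45a (49.5 and 52.0 FPKM) and the autophagy receptor Sqstm1 (40.7 and 43.7) were not called.

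Upstream, none of 12 genes for eIF2 kinases, eIF2, its exchange factor and their regulators was called, and 1 of them had an unadjusted p under 0.05 in the authors' deposited table. The kinases were at 63.4 and 61.4 FPKM for Eif2ak1 (HRI), 15.7 and 15.3 for Eif2ak2 (PKR), 7.07 and 6.33 for Eif2ak3 (PERK) and 16.4 and 16.1 for Eif2ak4 (GCN2). For Eif2ak4 the authors' deposited table lists a log2 fold of 0.53, against a ratio of -0.03 from the FPKM values. Eif2s1, the subunit that is phosphorylated, was at 36.5 and 37.4 FPKM. The exchange factor subunits were at 14.3 and 13.1 FPKM for Eif2b1, 44.3 and 48.1 for Eif2b2, 40.7 and 34.7 for Eif2b3, 23.4 and 22.3 for Eif2b4 and 10.7 and 11.2 for Eif2b5. Ppp1r15b, the constitutive phosphatase subunit, was at 37.7 and 39.1 FPKM, and Impact, an inhibitor of GCN2, at 19.1 and 15.9 (p = 0.0465 in the authors' deposited table). Phosphorylation of eIF2 was not measured.

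The other arms of the unfolded protein response, run by IRE1 and ATF6, had a median log2 ratio of 0.09, with 5 lower and 11 higher of 16, and with equal FPKM sums the median was -0.08. Relative to all rows the median was 0.08 higher under either scaling. The chaperone Hspa5 (BiP) was at 528 FPKM in WT cells and 577 in KO cells, Hsp90b1 at 269 and 285, Pdia4 at 192 and 222 and Xbp1 at 22.5 and 25.8, none of them called. The sensor Ern1 (IRE1) was at 14.1 and 11.6 FPKM and was not called, and Atf6 fell as given above.

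**Figure D4:**
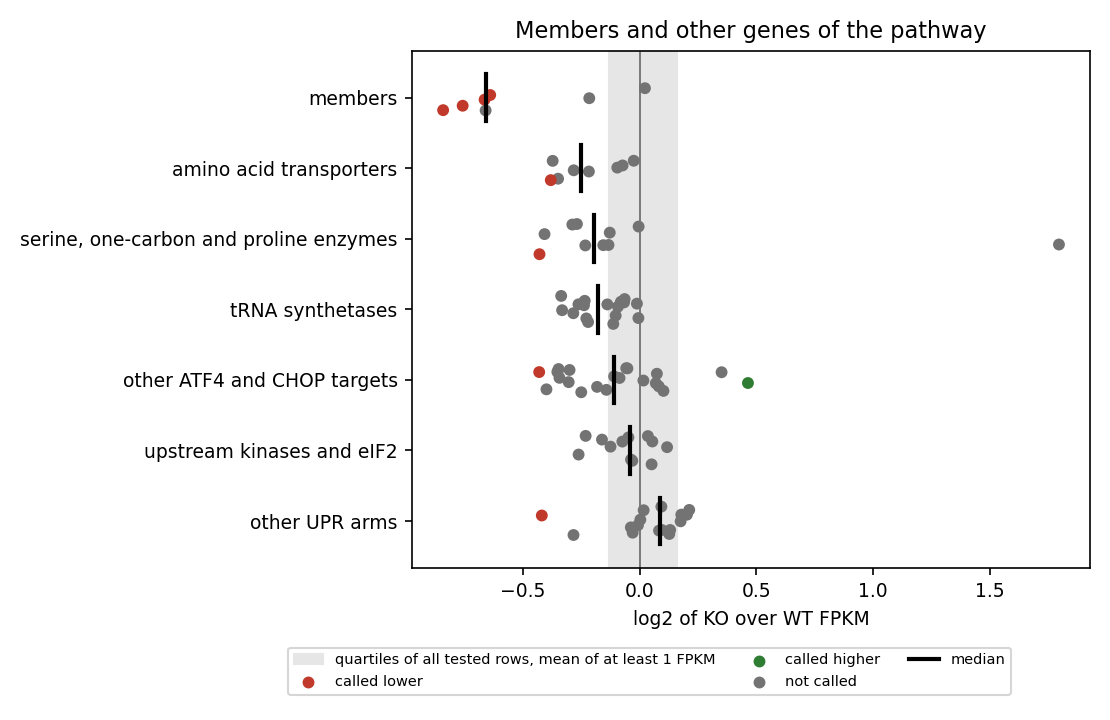
Log2 ratio of KO over WT FPKM for 7 members and the pathway lists, expressed genes (mean of 1 FPKM or more), with medians as black bars and the quartiles of all rows shaded. The transporters, serine enzymes and synthetases have medians of -0.25, -0.19 and -0.18, the other unfolded protein response arms 0.09, and Cbs is the point at 1.80.

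The promoter letters were compared with expression over the pathway. RefSeq windows matched 61 of the 69 expressed pathway genes (88.4%), and 14 (23.0%) held TGATGNAA. Among the 8189 expressed named genes with a window the share was 2.05%, and among all windows, expressed or not, it was 3.98%. The lists were written from knowledge of the ATF4 pathway, so a higher share in them is no independent support. Of the 14, 1 was called lower, Slc7a1, beside 0.708% of the expressed rows. The median log2 ratio was -0.18 with the letters and -0.09 without, a description with no test. The lists are unevenly spread over these groups. Aars, Cars, Iars, Mars, Nars, Tars and Yars, among the 14, are tRNA synthetases, whose list median was also -0.18. Of the upstream list, with a median of -0.04, only Ppp1r15b held the letters. The letters and the make-up of the lists cannot be told apart here. Among the members, Asns, Sesn2 and Atf5 fell without these letters in their windows, which says only that the letters are not in those 300 bases.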

How the data were processed

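Strand-specific RNA libraries (dUTP method) of 3 WT and 3 miR-203 KO cultures were measured, per the labels' protocols. TopHat 0.9, Cufflinks 2.2.1 and Cuffdiff 2.2.1.3 with build rn6 were used, per the submitters' processing notes; whether counting used strand, and the options and annotation, is not given in the sources used here. Only 1 table was used. In it the authors gave an FPKM value per group, a log2 fold, a test statistic (a score), a p-value and a q-value, per the file headers. Decimal commas were converted. The table has 26751 rows, of which 26459 were tested and 272 had too few reads. In 425 rows the deposited fold differed from the FPKM ratio by over 0.01 on the log2 scale, and 25 fold cells had been overwritten by a spreadsheet.

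The members and lists were chosen with earlier results of these data known. Pooled values allow no test between samples, so the authors' calls at q under 0.05 were copied. Their q-values equalled Benjamini-Hochberg values recomputed over the tested rows. Ratios are log2 of KO over WT FPKM with no pseudocount, and medians of lists use expressed genes (mean of 1 FPKM or more). Named are all members, the called genes of each list (up to 6), the family relatives and the upstream list; other pathway and marker genes were named after their values were seen. Some relatives in the lists are not reported here. Promoter and microRNA sequences come from RefSeq (GRCr8), which is not the build of the table, and no coordinates were converted. Python 3.11.15, pandas 2.3.3, NumPy 2.4.6, SciPy 1.17.1 and Matplotlib 3.10.9 were used, and the steps were tested on simulated data. Alternatives were other scalings, pseudocounts, thresholds, minimum levels and row choices.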

Additional observations from a re-analysis of the deposited data

How the results depend on the processing

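The count of 4 members called lower was 4 at q under 0.01, with a fold of at least 1.5 required, and with adjustment over rows of at least 1 or 5 FPKM. All 4 had q = 0.00756 in the authors' deposited table and folds of 1.56 to 1.79, so the rules on q and fold could not remove them. They also share the smallest p of all rows, so the unchanged count is no measure of stability. The count of members called lower was 3 with ties in locus length going to the lower mean. It was also 3 without the members that share a listed locus with another named gene (both chosen after seeing the data). For pathway genes called lower, 3 became 4 with adjustment over rows of at least 1 or 5 FPKM. The count became 0 at q under 0.01 and 0 with a fold of at least 1.5, and the 1 called higher became 0 with that fold. The stricter rule itself causes these drops to 0. The members' median of -0.65 was -0.38 with a pseudocount of 5, which shrinks low genes. With equal FPKM sums the pathway median of -0.13 was -0.30, and Cebpg reversed from 0.02 to -0.14, since that scaling shifts all ratios. Of 72 alternatives for single members, 64 stayed within 1.5 times, 7 moved further and 1 reversed. Many of the 64 could not move. The row with the highest mean was the main row for every member, and the rule for ties can change Atf5 alone. For the members the authors' fold equals the FPKM ratio. The 64 is therefore no measure of stability. No paired analysis was possible because each group is given as a single pooled value; leaving out replicates was not run for the same reason. With pooled values and no depth, the precision of low genes such as Ddit3 is unknown.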
